A study of Mus musculus with 12 samples.

Results

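The genes described here had lower RNA levels after induction of Hey1 in one cardiomyocyte line and after induction of Hey2 in another. They were chosen by their measured values: the level had to be lower in the induced than in the uninduced library by at least 0.32 on the log2(RPKM + 1) scale, a ratio of 5 to 4, in both lines. RPKM is the number of reads scaled to gene model length and library size. Of 10991 genes compared, 132 met this size (1.2%), where 1382 (12.6%) met it with Hey1 and 648 (5.9%) with Hey2. After 16 were left out by name (microRNA, small nucleolar RNA, mitochondrial ribosomal protein and solute carrier families, and genes such as Ldha, Pgk1, Lars2, Mixl1 and E2f1), 116 genes remained. Because both inductions were used to choose them, their differences with induction are a description and were not tested.

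The cells, labelled cardiomyocytes, had been grown in vitro out of CM7/1, a mouse embryonic stem cell line, in a version with inducible Hey1 and a version with inducible Hey2. RNA was sequenced in 4 libraries: uninduced Hey1-line cells, Hey1-line cells given 1000 ng/ml doxycycline for 48 h, uninduced Hey2-line cells, and Hey2-line cells given the same dose for the same time. Each group is 1 library, so no difference has a replicate check, and no p-value is given. Both induced libraries had received doxycycline and none came from treated cells without a Hey transgene, so an effect of the drug and one shared by Hey1 and Hey2 cannot be told apart.

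Hey1 and Hey2 are transcriptional repressors with a basic helix-loop-helix domain, related to the Hes proteins. They are switched on by Notch signalling, bind E-box-like DNA as dimers and recruit corepressors. In the heart they are known for patterning the chambers and the atrioventricular canal and for restraining cardiac genes there. A lower RNA level does not say whether a gene is bound.

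The induced genes were higher in the libraries that name them. Hey1 stood at 0.735 and 8.59 RPKM in uninduced and induced Hey1-line cells, 11.7-fold higher (6.48 to 23.1, 95% counting interval). Hey2 was blank in uninduced Hey2-line cells, where 5 reads equal 0.343 RPKM, and stood at 6.59 RPKM after induction, at least 19.2-fold higher. The libraries held 2296145 to 4182143 reads in listed genes. The cells of the Hey2 line went against their label in part: the 10 cardiomyocyte markers summed to 13877 and 14736 RPKM in uninduced and induced Hey1-line cells, but to 908 and 956 RPKM in Hey2-line cells. The 10 pluripotent cell markers went the other way, at 42.2 and 32.8 RPKM in Hey1-line and 430.4 and 431.0 RPKM in Hey2-line cells. In bulk RNA, fewer cells of a type and less RNA per cell cannot be told apart.

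The differences were modest. The median of the 116 genes was −0.43 with Hey1 and −0.45 with Hey2, where the medians of all compared genes were −0.06 and −0.00. As plain ratios of RPKM, uninduced over induced, the members ran from 1.26-fold to 3.12-fold lower with Hey1 and from 1.26-fold to 2.86-fold lower with Hey2. The larger difference lay in the Hey1 line for 58 genes and in the Hey2 line for the other 58. With a pseudocount of 1 RPKM, Hddc2 was the 1 member at least 2-fold lower with Hey1 (0.109% of all compared genes were), and Entrez100628584 and D130009I18Rik were the 2 with Hey2 (0.0364%). None was in both. At a size of 3 to 2 in both lines 5 members remained, where 6 of all compared genes (0.0546%) had that size. These 5 were Vwa3a, Brp16, Inha, Tm7sf2 and LOC100036521.

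**Figure D1:**
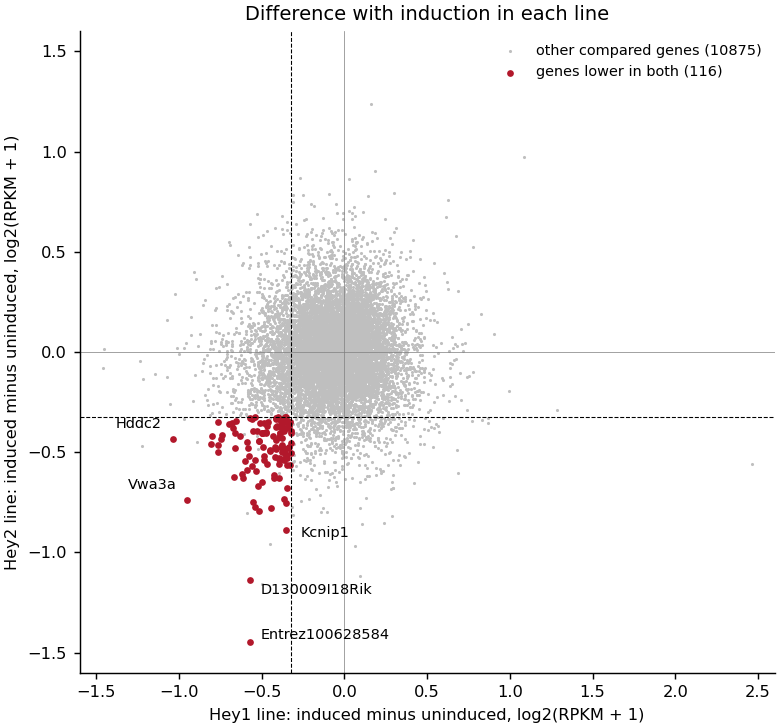
Difference with induction in log2(RPKM + 1) for the Hey1 line (x axis) and the Hey2 line (y axis), 1 point per gene. Red points are the 116 genes lower in both, which fill the corner beyond the dashed lines at the chosen size, and grey points are the other compared genes. Vwa3a lies farthest into the corner by its weaker difference.

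Counting error was large for many of these genes. The 95% interval of the ratio, which covers counting error only, lay clear of 1 in both lines for 40 members, in the Hey1 line alone for 22, in the Hey2 line alone for 26, and in neither for 28. Among all compared genes such intervals lay clear of 1 on the lower side in both lines for 1.43%, in the Hey1 line for 13.4% and in the Hey2 line for 6.62%. Since the members were chosen on the same ratios, nothing is read from that contrast. All intervals here use the deposited scaling. Median ratio scaling multiplies uninduced and induced Hey1-line levels by 1.066 and 1.135, which lowers every Hey1-line ratio. Intervals under it are not given, so clearing 1 narrowly in the Hey1 line depends on the scaling. The members had few reads: the library with the fewest held a median of 28 reads per member, against 74 over all compared genes, and 31 of 116 had at least 50 reads in every library. Genes with fewer reads passed the size in both lines more often, at 3.26% of the 1290 compared genes with under 20 reads in the lowest library and 0.483% of the 4348 with at least 100. How many members counting error alone would give is not stated here.

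Short genes were frequent among the members. Their gene models had a median length of 1469 bases, against 2894 over all compared genes, and 29 of 116 (25%) were under 1000 bases, against 7.77%. Of all compared genes under 1000 bases 3.86% were lower in both lines at this size, and of those of 3000 bases or more 0.513%. Shorter models collect fewer reads at the same RPKM, so length and counting error move together here. The median of all compared genes also moved with length in both lines. From under 1000 bases to 3000 bases or more it went from −0.10 to −0.05 in the Hey1 line and from −0.06 to 0.03 in the Hey2 line. The mean level hardly differed: 44.8% of members had a mean under 5 RPKM, against 40.8% of all compared genes.

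The strongest member by its weaker difference was Vwa3a, a gene of ciliated cells that encodes a von Willebrand factor A domain protein. It stood at 2.45 and 0.787 RPKM in uninduced and induced Hey1-line cells, 3.12-fold lower (2.0 to 5.0), and at 3.65 and 1.79 RPKM in the Hey2 line, 2.04-fold lower (1.51 to 2.76). Both induced libraries were thus below both uninduced ones. The other members in the list of cilium and axoneme genes were weaker. Rabl4 (current symbol Ift27), a small GTPase of intraflagellar transport, stood at 4.53 and 2.5 RPKM and at 7.38 and 5.32 RPKM, and only the Hey1-line ratio of 1.81 (1.01 to 3.37) cleared 1. Ift88, a core subunit of the same transport complex, stood at 1.23 and 0.736 RPKM and at 3.39 and 2.44 RPKM, with both intervals across 1. The list does not hold every member with a ciliary name. One outside it, 1700007G11Rik (current symbol Cfap299), was 1.94-fold (1.16 to 3.33) and 1.35-fold lower (1.10 to 1.66). Of 35 cilium and axoneme genes compared 3 were members, where 1.06% of all compared genes were. By this size 7 were lower with Hey1 and 8 with Hey2 (12.6% and 5.9% of all compared genes), and 3 and 1 were higher (3.28% and 5.62%). Since the members entered these counts by choice, nothing is read from them, nor from the list counts that follow. The list's medians, which include the 3 members, were −0.08 and −0.09, against −0.06 and −0.00 over all compared genes.

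**Figure D2:**
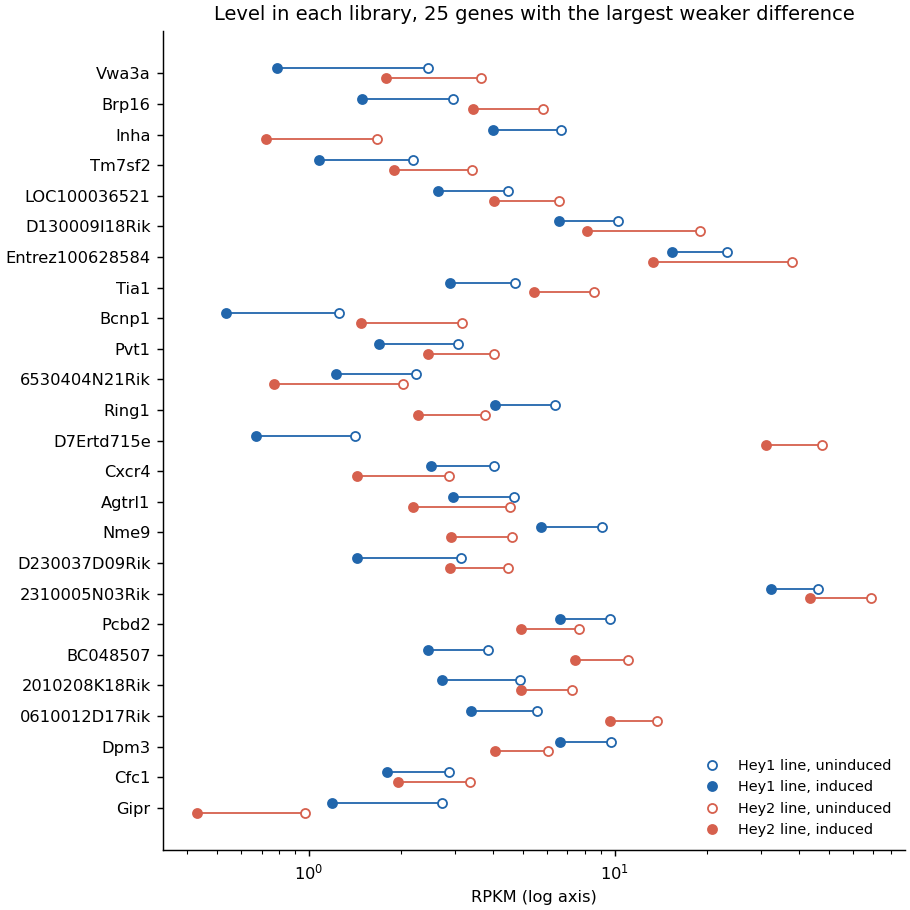
RPKM on a log axis in the 4 libraries for the 25 genes with the largest weaker difference. Open circles are uninduced and filled circles induced libraries, blue for the Hey1 line and red for the Hey2 line, and each filled circle lies left of its open circle by the choice of genes. D7Ertd715e stands out by the distance between the lines, at 1.42 RPKM in uninduced Hey1-line and 47.4 RPKM in uninduced Hey2-line cells.

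Several cell surface receptors and secreted factors were among the members. Agtrl1 (current symbol Aplnr) encodes the apelin receptor, which guides heart progenitors and acts in cardiac and vascular cells. It stood at 4.66 and 2.96 RPKM in uninduced and induced Hey1-line cells, 1.58-fold lower (1.18 to 2.12), and at 4.54 and 2.19 RPKM in the Hey2 line, 2.07-fold lower (1.52 to 2.83). The uninduced lines were level for it. Cxcr4, the receptor of the chemokine Cxcl12, stood at 4.02 and 2.5 RPKM, 1.61-fold lower (1.03 to 2.55), and at 2.88 and 1.43 RPKM, 2.0-fold lower (1.15 to 3.50). Inha, the alpha subunit of inhibin, was 1.66-fold lower in the Hey1 line (1.12 to 2.47), at 6.65 and 4.01 RPKM. In the Hey2 line it stood at 1.66 and 0.725 RPKM from 14 and 11 reads, and the ratio of 2.30 was within counting error (0.969 to 5.59). Gipr, the receptor of the incretin GIP, had a like pattern, at 2.71 and 1.19 RPKM (2.28-fold, 1.23 to 4.40) and at 0.970 and 0.430 RPKM from 10 and 8 reads. Cfc1 encodes Cryptic, a coreceptor of Nodal in left-right patterning. Its levels of 2.86 and 1.80 RPKM and of 3.35 and 1.95 RPKM came from 14 to 22 reads per library, and neither interval cleared 1.

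Further members act in signalling at the membrane or beneath it, and were named after their values were seen unless they had many reads. The axon guidance ligand gene Sema6d, which also acts in heart development, stood at 5.65 and 3.72 RPKM in the Hey1 line, 1.52-fold lower (1.26 to 1.84), and at 1.13 and 0.613 RPKM in the Hey2 line, 1.85-fold lower (1.18 to 2.90). Enpp2 encodes autotaxin, the enzyme that makes lysophosphatidic acid, and was 1.56-fold and 2.10-fold lower. Camk1d, a calcium and calmodulin dependent kinase, had more reads, 345 to 508 per library. It was 1.33-fold lower in the Hey1 line (1.16 to 1.54) and 1.52-fold lower in the Hey2 line (1.33 to 1.73). Id3, an inhibitor of basic helix-loop-helix factors and a target of BMP signalling, stood at 16.4 and 12.5 RPKM, 1.32-fold lower (0.994 to 1.76), and at 14.2 and 10.3 RPKM, 1.38-fold lower (1.01 to 1.87). Tspan12, a tetraspanin of the Norrin receptor complex, was the last gene inside the size, at −0.32 in the Hey1 line. It stood at 10.1 and 7.87 RPKM, 1.28-fold lower (1.03 to 1.6), and at 1.75 and 1.01 RPKM, 1.73-fold lower (0.961 to 3.13). St6gal2 and Tmem160 lay just inside too, with a weaker difference of −0.32 each. Just outside it lay Sgcd, Srp9 and 5730449L18Rik, each at −0.32 in the Hey2 line and short of the size by less than the last digit given.

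Among genes that act on chromatin, both Ring1 and Bmi1 encode core subunits of Polycomb repressive complex 1, which ubiquitinates histone H2A and holds developmental genes silent. Ring1 stood at 6.38 and 4.06 RPKM in the Hey1 line, and at 3.76 and 2.27 RPKM in uninduced and induced Hey2-line cells, 1.57-fold (0.979 to 2.55) and 1.65-fold lower (0.884 to 3.08), with both intervals across 1. Bmi1 stood at 3.68 and 2.37 RPKM, 1.55-fold lower (1.12 to 2.16), and at 1.69 and 1.05 RPKM, 1.62-fold lower (0.996 to 2.62). Both stood higher in the uninduced Hey1 line than in the uninduced Hey2 line. Of 17 complex genes compared, a list drawn up after these values were seen, 13 lay below 0 with Hey1 and 9 with Hey2, where 61.6% and 50.6% of all compared genes did. By the chosen size 5 were lower with Hey1 and 3 with Hey2, against 12.6% and 5.9%. Ring1 and Bmi1 enter these counts by choice, so nothing is read from the counts. Rnf2, the paralog of Ring1, was higher in both lines, at 13.7 and 15.4 RPKM and at 21.1 and 25.1 RPKM. Its ratios of uninduced to induced RPKM were 0.892 (0.762 to 1.04) in the Hey1 line and 0.843 (0.743 to 0.955) in the Hey2 line. Only the Hey2-line interval lay clear of 1. Mphosph8, which reads methylated histone H3 in the HUSH silencing complex, had many reads. It stood at 12.1 and 9.26 RPKM, 1.31-fold lower (1.08 to 1.58), and at 27.3 and 21.6 RPKM, 1.26-fold lower (1.12 to 1.43). The histone chaperone gene Asf1a was 1.62-fold and 1.36-fold lower, with both intervals across 1. No member was among the 12 histone genes compared.

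Among genes of RNA binding and processing, both intervals cleared 1 for Tia1 and Sfrs3. Tia1, a splicing regulator and component of stress granules, stood at 4.72 and 2.88 RPKM in the Hey1 line, 1.64-fold lower (1.27 to 2.13), and at 8.54 and 5.43 RPKM in the Hey2 line, 1.57-fold lower (1.31 to 1.89). Sfrs3 (current symbol Srsf3), an SR splicing factor needed in heart and stem cells, stood at 19.5 and 11.6 RPKM, 1.68-fold lower (1.44 to 1.96), and at 65.0 and 50.4 RPKM, 1.29-fold lower (1.19 to 1.39). Exosc8, a ring subunit of the RNA exosome, stood at 4.28 and 2.69 RPKM and at 20.5 and 14.9 RPKM, and only the Hey2-line ratio of 1.38 (1.02 to 1.86) cleared 1. It and Mphosph8 were the members among 20 compared exosome and nuclear decay genes, with list medians of −0.12 and −0.13. Of the 20 genes 14 lay below 0 with Hey1 and 15 with Hey2, where 61.6% and 50.6% of all compared genes did. Mphosph8, described above by its HUSH silencing role, stood in that list by a loose choice.

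Others of the group were single members of their lists. 3300001G02Rik (current symbol Snrnp25), a subunit of the minor spliceosome, was 1.65-fold lower in the Hey1 line (1.06 to 2.59) and 1.38-fold in the Hey2 line (0.952 to 1.99), 1 member of 31 spliceosome core genes compared. Polr1e, a subunit of RNA polymerase I, was 1.38-fold (1.05 to 1.83) and 1.33-fold lower (1.02 to 1.73), 1 member of 28 polymerase genes. Utp11l, a processing factor of the small ribosomal subunit, stood at 8.65 and 6.02 RPKM and at 24.1 and 18.7 RPKM, 1 member of 56 ribosome biogenesis genes. The medians of that list, which include the member, were −0.14 and −0.09, against −0.06 and −0.00 over all compared genes. Sumo2, a ubiquitin-like modifier with pseudogene copies that make its reads uncertain, was 1.37-fold (0.985 to 1.92) and 1.31-fold lower (1.07 to 1.6), 1 member of 38 genes of ubiquitin conjugation.

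**Figure D3:**
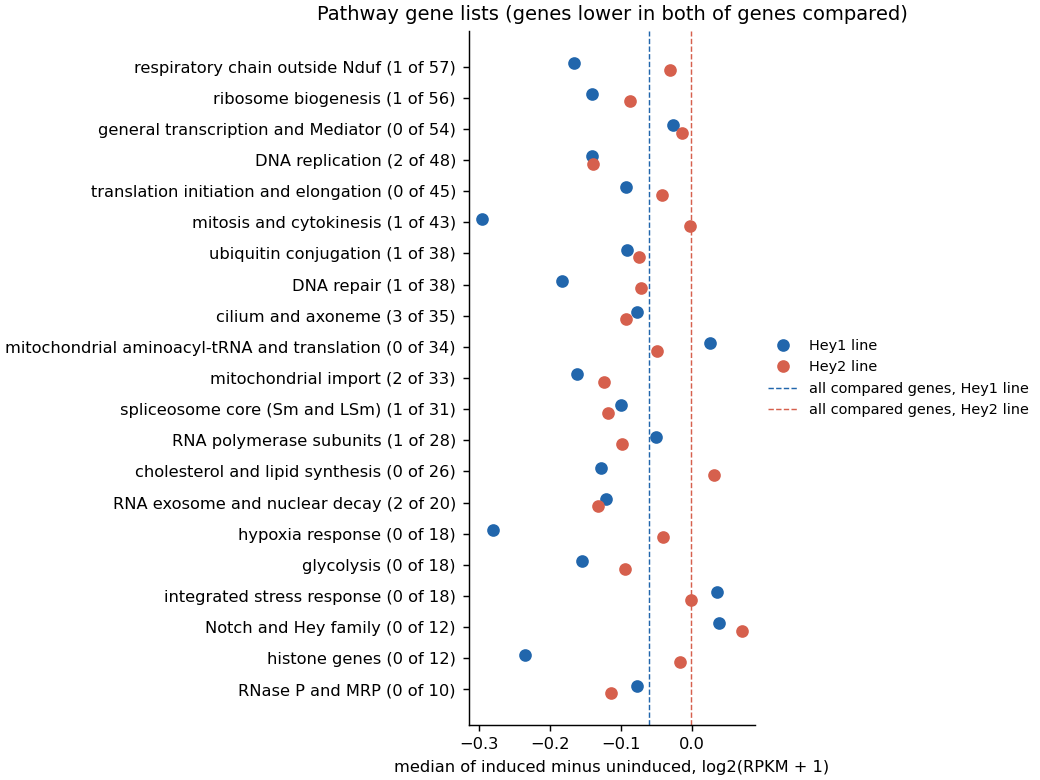
Median difference with induction, log2(RPKM + 1), over the compared genes of 21 pathway lists, in the Hey1 line (blue) and the Hey2 line (red), with the medians of all compared genes as dashed lines. Numbers in brackets are genes lower in both lines of genes compared. No list held more than 3 such genes.

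The lists of replication, repair and division genes held 4 members. Of 48 DNA replication genes compared 2 were members. The list as a whole had medians of −0.14 in both lines, against −0.06 and −0.00 over all compared genes. Of its genes 37 lay below 0 with Hey1 and 39 with Hey2, where 61.6% and 50.6% of all compared genes did. Pole3, a histone-fold subunit of DNA polymerase epsilon, stood at 14.4 and 8.68 RPKM in the Hey1 line, 1.66-fold lower (1.10 to 2.54), and at 15.4 and 11.6 RPKM in the Hey2 line, 1.33-fold lower (0.914 to 1.92). Gins2, a subunit of the replicative helicase, stood at 5.73 and 3.73 RPKM, 1.54-fold lower (0.941 to 2.55), and at 20.6 and 15.9 RPKM, 1.30-fold lower (1.02 to 1.65). Rad51c, a recombinase paralog, was the member among 38 DNA repair genes, at 1.82-fold (1.03 to 3.33) and 1.42-fold lower (1.05 to 1.90). Cenpq, a kinetochore subunit, was the member among 43 mitosis genes, at 1.52-fold (0.737 to 3.23) and 1.54-fold lower (1.07 to 2.22). The mitosis list had 19 genes lower by this size with Hey1 and 1 with Hey2, where 12.6% and 5.9% of all compared genes were. That difference between the lines was not tested. These 4 genes were 0.09 to 1.68 higher in the uninduced Hey2 line on the log2(RPKM + 1) scale, where the pluripotent cell markers were also higher, except that Pole3 stood at −0.14 under median ratio and −0.07 under upper quartile scaling.

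Mitochondrial and metabolic genes formed another part. The highest of them was 2310005N03Rik (current symbol Cox20), an assembly factor of cytochrome c oxidase with a gene model of 448 bases. It stood at 46.2 and 32.4 RPKM, 1.42-fold lower (1.11 to 1.84), and at 68.7 and 43.5 RPKM, 1.58-fold lower (1.28 to 1.94). It was the member among 57 compared respiratory chain genes outside complex I, whose medians were −0.17 and −0.03. Tomm7 and 1700034H14Rik (current symbol Timm21), of the outer and inner membrane translocases, were the members among 33 mitochondrial import genes. Tomm7 stood at 18.2 and 13.5 RPKM and at 18.5 and 14.5 RPKM, 1.35-fold (1.05 to 1.74) and 1.27-fold lower (0.999 to 1.62), and 1700034H14Rik at 1.43-fold and 1.39-fold lower. The glycolysis list held no member because the 2 of its 18 genes lower in both lines had been left out by name.

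Ubiquinone and diphthamide synthesis each had a pair of members, which was seen only after the values were known. Coq2 and Pdss1 catalyse early steps of ubiquinone synthesis, joining and making its side chain. Coq2 stood at 13.2 and 9.81 RPKM, 1.34-fold lower (1.06 to 1.71), and at 18.7 and 13.9 RPKM, 1.34-fold lower (1.10 to 1.63). Pdss1 stood at 3.31 and 2.36 RPKM and at 8.72 and 6.48 RPKM, with both intervals across 1. Of 11 ubiquinone synthesis genes compared 6 lay below 0 with Hey1 and 7 with Hey2, against the same 61.6% and 50.6%. By the chosen size 4 were lower with Hey1 (12.6% of all compared genes were) and 2 with Hey2 (5.9%). Coq6 and Coq4 were each 0.47 higher with Hey1 on the log2(RPKM + 1) scale. Their ratios of uninduced to induced RPKM were 0.705 (0.565 to 0.878) and 0.667 (0.457 to 0.965). With Hey2 they stood at −0.04 and −0.08. Pdss2, which pairs with Pdss1, was lower in the Hey1 line alone, at 30.7 and 17.1 RPKM, and stood at 23.4 and 22.3 RPKM in the Hey2 line. Dph3 and Dph4 (current symbol Dnajc24) act in the synthesis of diphthamide, a modified histidine of translation elongation factor eEF2. Dph3 stood at 4.03 and 2.74 RPKM, 1.47-fold lower (1.05 to 2.07), and at 5.36 and 3.16 RPKM, 1.69-fold lower (1.26 to 2.27). Dph4 was 1.57-fold and 1.34-fold lower with both intervals across 1. Of 7 such genes compared 6 lay below 0 with Hey1 and 4 with Hey2, against 61.6% and 50.6%. By the chosen size 3 were lower with Hey1 (12.6% of all compared genes were) and 4 with Hey2 (5.9%). With Hey2 the others, Atpbd4, Dph5 and Dph1, stood 0.24, 0.16 and 0.12 higher on the log2(RPKM + 1) scale. The members of both pathways enter these counts by choice, so nothing is read from the counts.

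The members with the most reads give the ratios least touched by counting error. 4631422O05Rik (current symbol Filip1l), a regulator of filamin and cell motility, had 833 to 1105 reads per library. It stood at 36.9 and 28.7 RPKM in the Hey1 line, 1.29-fold lower (1.18 to 1.41), and at 35.8 and 20.9 RPKM in the Hey2 line, 1.72-fold lower (1.56 to 1.89). Mat2a, which makes the methyl donor S-adenosylmethionine, was 1.28-fold lower in both lines (1.09 to 1.5 and 1.17 to 1.4), at 16.6 and 13.0 RPKM and at 53.2 and 41.6 RPKM. Glo1, which detoxifies methylglyoxal, was 1.44-fold (1.2 to 1.74) and 1.35-fold lower (1.13 to 1.61). Arpp19, a phosphatase inhibitor that acts at mitotic entry, was 1.30-fold lower in both lines (1.08 to 1.56 and 1.12 to 1.5). Tpd52, a trafficking protein gene, was 1.58-fold (1.19 to 2.12) and 1.27-fold lower (1.13 to 1.44). In all, 16 members had at least 100 reads in every library. Under the deposited scaling both intervals cleared 1 for each of them except Tomm7. Some Hey1-line intervals began close to 1, such as those of Coq2 (1.06) and Trappc3 (1.05), and may not clear it under median ratio scaling.

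**Figure D4:**
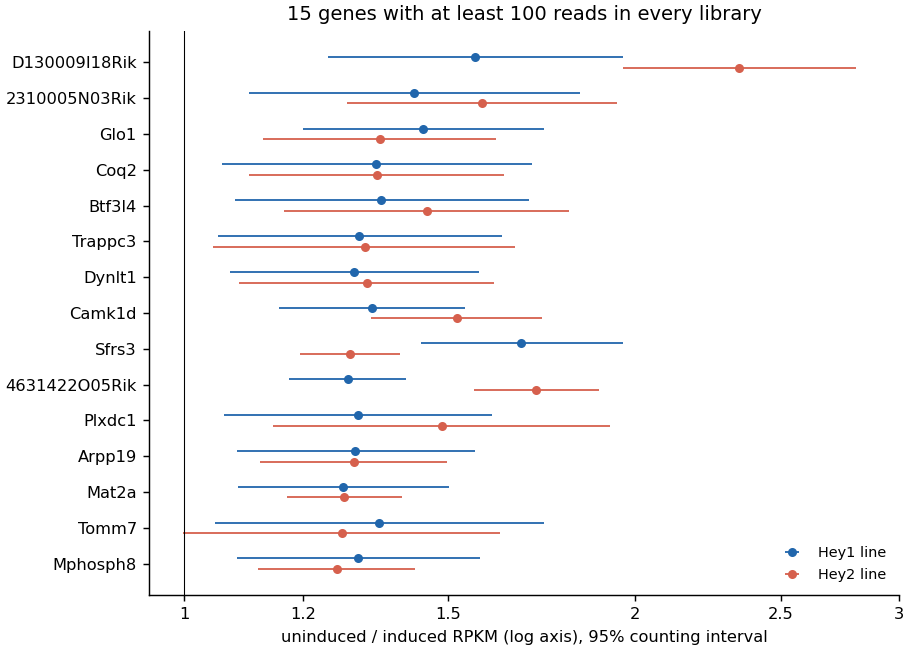
Ratio of uninduced to induced RPKM on a log axis with its 95% counting interval, for 15 of the 16 genes with at least 100 reads in every library, in the Hey1 line (blue) and the Hey2 line (red). The ratios lie between 1.26 and 1.72 except that of D130009I18Rik in the Hey2 line, at 2.35.

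Noncoding and unnamed loci were also present. Of the 116 members 104 (89.7%) were protein coding by RefSeq's biotype, 7 were long noncoding RNAs, 3 pseudogenes, and 2 had no entry. Among all compared genes 96.3% were protein coding. The noncoding RNA D130009I18Rik stood at 10.3 and 6.57 RPKM in the Hey1 line, 1.56-fold lower (1.25 to 1.96), and at 19.0 and 8.08 RPKM in the Hey2 line, 2.35-fold lower (1.96 to 2.81). Pvt1, the noncoding neighbour of Myc, stood at 3.08 and 1.69 RPKM, 1.82-fold lower (1.21 to 2.76), and at 4.02 and 2.45 RPKM, 1.64-fold lower (1.17 to 2.29). D7Ertd715e (current symbol Snhg14), the long transcript of the imprinted Prader-Willi region, was 2.12-fold lower in the Hey1 line from 23 and 11 reads (0.992 to 4.82) and 1.52-fold lower in the Hey2 line from 598 and 708 reads (1.36 to 1.70). Entrez100628584 has a model of 87 bases and 10 to 19 reads per library. Its Hey2-line ratio of 2.86 had an interval of 1.32 to 6.45, and how reads were assigned to so short a model is not given.

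The remaining genes of the strongest 25 were of mixed function. Brp16 (current symbol Hgh1) stood at 2.95 and 1.49 RPKM, 1.98-fold lower (1.16 to 3.48), and at 5.84 and 3.43 RPKM, 1.70-fold lower (1.2 to 2.42). LOC100036521 (current symbol Umad1) was 1.70-fold (1.15 to 2.54) and 1.63-fold lower (1.19 to 2.22), and Bcnp1 (current symbol Niban3) 2.33-fold (1.07 to 5.49) and 2.14-fold lower (1.36 to 3.38). Tm7sf2, a sterol reductase of cholesterol synthesis, was 2.03-fold (0.975 to 4.45) and 1.80-fold lower (1.04 to 3.13). Dpm3, which anchors dolichol-phosphate mannose synthase, and Pcbd2, a pterin dehydratase, had both intervals across 1, as did BC048507, which has near-identical copies, and 0610012D17Rik (current symbol Tctex1d2). In one line alone an interval cleared 1 for Nme9, D230037D09Rik and 2010208K18Rik (Hey1 line) and for 6530404N21Rik (Hey2 line). The 59 members not chosen by strength, list, reads, threshold or line difference are otherwise given by the ranges above.

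The contrast between the lines was not used in the choice of genes, although the same libraries enter it. Without induction 31 members (26.7%) exceeded the Hey1 line by 2-fold or more in Hey2-line cells, by log2(RPKM + 1), where 19.7% of all compared genes were, and 11 (9.48%) at least 2-fold lower, against 13.1%. With induction these shares were 26.7% against 22.8% and 10.3% against 12.3%. The median was 0.43 without induction and 0.41 with it, against 0.20 and 0.27 over all compared genes. Under median ratio scaling the members' medians were 0.24 and 0.15, against 0.01 and 0.00. Most members, 74 of 116, were within 2-fold between the uninduced lines. Genes lower with induction thus occurred both among those high in the Hey1 line and among those high in the Hey2 line. With 1 library per group, whether these shares differ beyond the spread of cultures was not tested.

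The extremes lay far apart. D7Ertd715e was 33.5-fold higher in the uninduced Hey2 line (22.1 to 53.2), and 2810026P18Rik (current symbol Snhg5), a host of small nucleolar RNAs, 6.36-fold higher (3.74 to 11.4). 5430416N02Rik, Tpd52 and 1700007G11Rik (current symbol Cfap299) were 5.89-fold, 4.68-fold and 4.67-fold higher there. In the other direction Mt3, a metallothionein, stood at 48.7 RPKM in the uninduced Hey1 line and 3.88 RPKM in the uninduced Hey2 line, 12.6-fold lower (7.03 to 24.7). 2310050B05Rik (current symbol Atcayos) stood at 170 and 16.4 RPKM, 10.4-fold lower (7.14 to 15.6). It lies opposite Atcay, and without strand the reads of the 2 genes cannot be told apart. Tspan12, 0610006I08Rik (current symbol Tmem223) and Tmem109 were 5.78-fold, 4.73-fold and 3.99-fold lower in the Hey2 line.

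**Figure D5:**
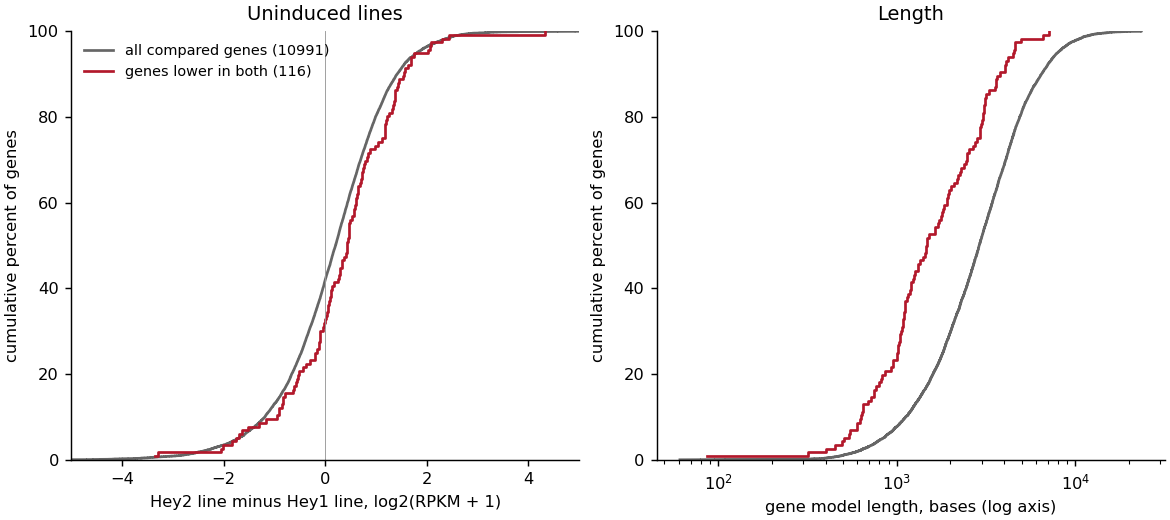
Cumulative percent of genes by the difference between the uninduced lines, log2(RPKM + 1), left, and by gene model length on a log axis, right, for the 116 genes lower in both inductions (red) and all compared genes (grey). The red length curve lies left of the grey one, with medians of 1469 and 2894 bases, while the line differences overlap widely.

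The promoters of the members were searched for the sites that Hey proteins are known to bind. RefSeq promoters (250 bases before to 50 after the start, GRCm38.p6) were found for 88 of 116 members and for 8784 of 10991 compared genes. The E-box CACGTG or the related CACGCG, on either strand, stood in at least 1 listed promoter of 19 members (21.6%, exact 95% interval 13.5 to 31.6). Counted in the same way, the share was 30.7% of compared genes and 17.2% of all 27025 genes in the table, and 15.4% of its 32851 single promoters held one. CACGTG alone was in 7.95% of members (3.26 to 15.7), against 12.3% of compared genes and 8.09% of all genes (7.15% of single promoters). CACGCG was in 14.8% (8.11 to 23.9), against 21.2% and 10.5% (9.27%). The members' promoters held fewer CpG dinucleotides, with a median of 19 against 22 in compared genes. Another 5 motifs were searched after these were seen. TATAAA stood in 15.9% of members (8.98 to 25.2), against 8.24% of compared genes and 15.7% of all genes (13.6% of single promoters). GGGCGG stood in 58.0% (47.0 to 68.4), against 71.4% and 38.2% (35.7%). CCAAT was in 48.9% (38.1 to 59.8), against 43.2% and 41.1% (37.4%), and CCGGAAG in 21.6% (13.5 to 31.6), against 21.6% and 9.93% (8.86%). ACGTG, which overlaps CACGTG, was in 29.5% (20.3 to 40.2), against 30.7% and 21.8% (19.6%). The intervals treat the members as random draws, although a rule chose them, so no departure is read from them. These matches are letters in a window and say nothing about binding in these cells.

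Of the members with such a motif before the start and both counting intervals clear of 1, which are Bri3, Commd7, Dph3, Rad51c, Sema6d and Sfrs3, 4 are shown as examples of both motifs and of both orientations of CACGCG. The intervals come from the ratios that chose the members, so the choice lends nothing to the motif. Each is the 250 bases before a RefSeq start (GRCm38.p6), 5′ to 3′ on the gene's strand, and the capitals mark CACGTG, or CACGCG in either orientation.
Sema6d (chr2:124089719-124089968, + strand): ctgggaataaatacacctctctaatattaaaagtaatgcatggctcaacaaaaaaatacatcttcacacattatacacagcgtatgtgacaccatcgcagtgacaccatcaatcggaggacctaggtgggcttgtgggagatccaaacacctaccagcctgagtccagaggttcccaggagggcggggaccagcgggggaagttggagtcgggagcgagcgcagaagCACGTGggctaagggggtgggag
Bri3 (chr5:144254975-144255224, + strand): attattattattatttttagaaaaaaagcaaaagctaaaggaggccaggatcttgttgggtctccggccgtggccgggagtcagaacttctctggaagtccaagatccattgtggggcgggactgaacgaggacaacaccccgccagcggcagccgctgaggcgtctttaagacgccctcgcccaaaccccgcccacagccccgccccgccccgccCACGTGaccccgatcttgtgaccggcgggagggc
Commd7 (chr2:153632782-153633031, − strand): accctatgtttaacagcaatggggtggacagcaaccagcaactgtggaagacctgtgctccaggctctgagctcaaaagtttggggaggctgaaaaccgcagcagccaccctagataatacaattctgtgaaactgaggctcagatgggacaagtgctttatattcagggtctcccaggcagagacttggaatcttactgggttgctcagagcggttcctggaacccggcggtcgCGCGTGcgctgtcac
Sfrs3 (chr17:29032410-29032659, + strand): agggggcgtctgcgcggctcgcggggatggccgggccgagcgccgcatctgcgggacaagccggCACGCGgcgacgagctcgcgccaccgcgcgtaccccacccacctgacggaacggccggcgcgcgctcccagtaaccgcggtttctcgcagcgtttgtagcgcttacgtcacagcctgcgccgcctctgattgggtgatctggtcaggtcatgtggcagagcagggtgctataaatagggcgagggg
The motif starts 23 bases before the start shown in Sema6d, 34 in Bri3, 15 in Commd7 and 186 in Sfrs3. Sema6d and Bri3 each have another listed promoter with no such motif before its start. Which start these cells use was not tested. Besides Sema6d and Sfrs3, whose values are given above, Bri3, a transmembrane protein gene, was 1.28-fold (1.02 to 1.61) and 1.32-fold lower (1.00 to 1.72). Commd7, a trafficking regulator of the COMMD family, was 1.6-fold (1.06 to 2.44) and 1.65-fold lower (1.11 to 2.44). Bmi1 held both motifs and Ring1 the second, but both had at least 1 interval across 1.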

How the data were processed

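RPKM values of 4 cardiomyocyte RNA-seq libraries were used as the authors deposited them, in 1 table of 23427 genes with blank cells and no zeros. The build mm9 and the tools Bowtie 1.0, DESeq and MACS 1.4.1 are named with no role, per the submitters' processing notes. Which annotation and read counter were used, and how strand and multiply matching reads were handled, is not given in the sources used here. The table's signed fold is a score the authors deposited, equal to the signed ratio of their RPKM, and was not used further. The 8 chromatin immunoprecipitation samples were not analysed here.

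Genes with 4 values and a mean of at least 1 RPKM were compared (10991, after 6 exact copies were dropped). A name was the deposited symbol or, for 1966 blank cells, RefSeq's symbol by Entrez number (GRCm38.p6, 23334 numbers matched), by which Mir682 and Mir1902 were left out. Differences are of log2(RPKM + 1), a scale that understates changes of low genes.

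Reads were recovered from the RPKM steps. The divisors (total reads in units of 1e6: 7.4, 7.5, 5.75 and 10.375) were the smallest with which all but 1 of the listed microRNA hairpin lengths gave whole reads in each library. Then 15363 of 15371 genes (99.9%) gave whole reads at some length up to 25000 bases. The smallest such length was used, raised for 634 genes to keep reads at or above the floor of 10 (Hey1 line) or 5 (Hey2 line). Ratios have exact conditional binomial 95% intervals, which cover counting error only. The method was tested on simulated data. Python 3.11.15, NumPy 2.4.6, pandas 2.3.3, SciPy 1.17.1 and Matplotlib 3.10.9 were used.

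The members and lists were chosen with earlier results of these data known. Named were the 25 members with the largest weaker difference, members of a fixed list, the 10 with the most reads, 3 just inside and 3 just outside the size, and 5 in each direction between the lines. Others were named after their values were seen. The values of 1 member named by the rule on reads are not reported here.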

Additional observations from a re-analysis of the deposited data

How the results depend on the processing

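The number of genes lower in both lines depended on the settings. It was 116 as reported, 220 at a pseudocount of 0.1 RPKM and 240 for plain ratios of RPKM (all 116 among them in both), 64 at a mean of at least 5 RPKM, 75 under median ratio scaling, and 5 at a size of 3 to 2. With at least 50 reads in every library, an alternative chosen after seeing the data, it was 31. At a pseudocount of 0.5 RPKM (159), with no filter on the mean (118), under upper quartile scaling (84) and with names only as deposited (118, also added later) it stayed within 1.5 times. Both other scalings kept the same 75 genes. They move the median of all genes from −0.06 to 0.01 and −0.01 in the Hey1 line, and from 0.20 to 0.01 and 0.07 between the uninduced lines. The members' median in the Hey1 line was −0.58 and −0.50 at pseudocounts of 0.1 and 0.5 RPKM, −0.38 under median ratio and −0.39 under upper quartile scaling. In the Hey2 line it was −0.53 and −0.50 at the 2 pseudocounts. The cause of each shift was not tested beyond the setting itself. A pseudocount cannot change the sign of a difference, and both scalings move the medians with induction by far less than the chosen size. The choice of genes thus fixed in advance that no difference with induction changed sign under these settings among the 57 named members. Of their differences between the uninduced lines, 6 moved beyond counting error under median ratio scaling (to 1.45 for Sfrs3, 1.39 for Mat2a, 0.88 for Mphosph8, 0.03 for Camk1d and −0.28 for 4631422O05Rik, the other not reported), 2 under upper quartile scaling and 1 at 0.1 RPKM (D7Ertd715e, to 4.97). Those of Cfc1, Pole3, Polr1e and Tomm7, 0.03 to 0.17 as reported, changed sign under median ratio scaling. No paired analysis was possible because each group is 1 library. Few reads per gene widen the intervals, and the spread between cultures cannot be measured.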
